A study of Arabidopsis thaliana with 24 samples.

Results

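Roots of *stop1* seedlings were compared with wild-type roots after excess iron by RNA-seq, over all 20450 genes of the deposited table. The comparison used 4 of the 24 libraries of a study of 6 media and 2 genotypes, namely the 2 *stop1* and the 2 wild-type libraries of the medium called ++Fe. The *stop1* seedlings carried a T-DNA insertion (line SALK_114108, a single mutant line) in the Col-0 background, and the wild-type was Col-0 (CS70000). The seedlings of both genotypes were kept for 16 h in liquid ++Fe medium with 0.1 mM Pi and 0.1 mM FeSO4 at pH 5. Each library was made from root tip sections pooled from many seedlings, and the 2 libraries of a group are described as independent biological replicates. The medium -Pi_pH5, used beside it, held 0 mM Pi at pH 5 with only the iron of the base medium, and +Al held 0 mM Pi at pH 5 with AlCl3, also for 16 h. The labels give 100 µM AlCl3 and the study's methods a higher concentration, so the dose is uncertain. The media therefore differ in Pi as well as in the metal.

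STOP1 is a zinc finger transcription factor that lets roots tolerate protons and aluminum, in large part by switching on the malate channel ALMT1. Malate released from the root binds metal ions outside the cell, and under low phosphate this exudation is also tied to the accumulation of iron in the root tip. Excess iron is handled in roots by lower uptake, by storage in ferritin and in the vacuole, and by enzymes that remove reactive oxygen.

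Before the results, the libraries were compared with each other. Of the 4 libraries, wild-type replicate 2 stood furthest from the rest. On log2(CPM + 1), where CPM is a gene's reads scaled by the library's TMM-adjusted total of reads on genes, the *stop1* replicates correlated at 0.9908 and the wild-type replicates at 0.9791, whereas wild-type replicate 1 correlated with the *stop1* libraries at 0.9822 and 0.9856. Calls that were lost with 1 library left out are marked below for the genes called. The libraries held 18583600 to 24037220 reads on genes, so that 1 read was worth 0.0436 to 0.0560 CPM. All 14 root markers were measured, from WOX5 of the stem cell niche to CASP1 of the endodermis, with a summed level of 581 to 640 CPM in *stop1* and 731 to 816 CPM in wild-type. Of them 1 passed the test (7.14%, beside 1.21% of all genes), the phosphate transporter PHT1;1, and it was lower in *stop1*. PHT1;1 had a mean of 170 CPM in *stop1* and 336 CPM in wild-type, and the gap between the summed levels lay mostly in this gene. Over the 14 markers the median difference was 0.00, with 7 below 0 and 7 above 0. The 41 photosynthesis genes measured, markers of green tissue, summed to 455 to 462 CPM in *stop1* and 429 to 451 CPM in wild-type, and none passed the test. In bulk roots, fewer cells of a type and less RNA per cell cannot be told apart.

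STOP1 (AT1G34370) had 34.0 and 30.4 CPM in the *stop1* libraries, against 136 and 123 CPM in the wild-type libraries. Both *stop1* libraries lay far below both wild-type libraries, in the direction of the label, and STOP1 reads were still present in the mutant. The difference was -1.98 ± 0.17 on the log2(CPM + 1) scale (SE, n = 2 per group; limma, Benjamini-Hochberg adjusted p = 2.39e-06). The gene overlaps AT1G06753 on the opposite strand, and the reads of the pair can be told apart only if the counting used the strand, which the sources do not give.

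Under excess iron, *stop1* roots had more genes below wild-type than above it. With limma on log2(CPM + 1) and Benjamini-Hochberg adjustment over all genes, 183 genes were lower in *stop1* (0.895% of those tested) and 65 were higher (0.318%) at an adjusted p under 0.05, 248 genes in all (1.21%), beside 1994 genes at an unadjusted p under 0.05. In all 248 genes the libraries of the 2 genotypes did not overlap, which also held for 18.2% of all genes in the lower and 16.5% in the higher direction. The lower genes differed by a median of 1.16 on the log2 scale and 27 of them by over 4-fold, whereas the higher genes differed by a median of 1.08 and 3 of them by over 4-fold. The count depended on single libraries. Without *stop1* replicate 1 it was 81 lower and 22 higher, without *stop1* replicate 2 it was 118 and 25, without wild-type replicate 2 it was 105 and 18, and without wild-type replicate 1 the balance turned, with 238 lower and 457 higher. A fit of the 4 libraries alone called 40 lower and 4 higher genes. Of the 45 genes that the rule for naming genes picked among those called, 29 passed with any 1 of the 4 libraries left out, and 17 passed in the fit of the 4 libraries alone.

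**Figure D1:**
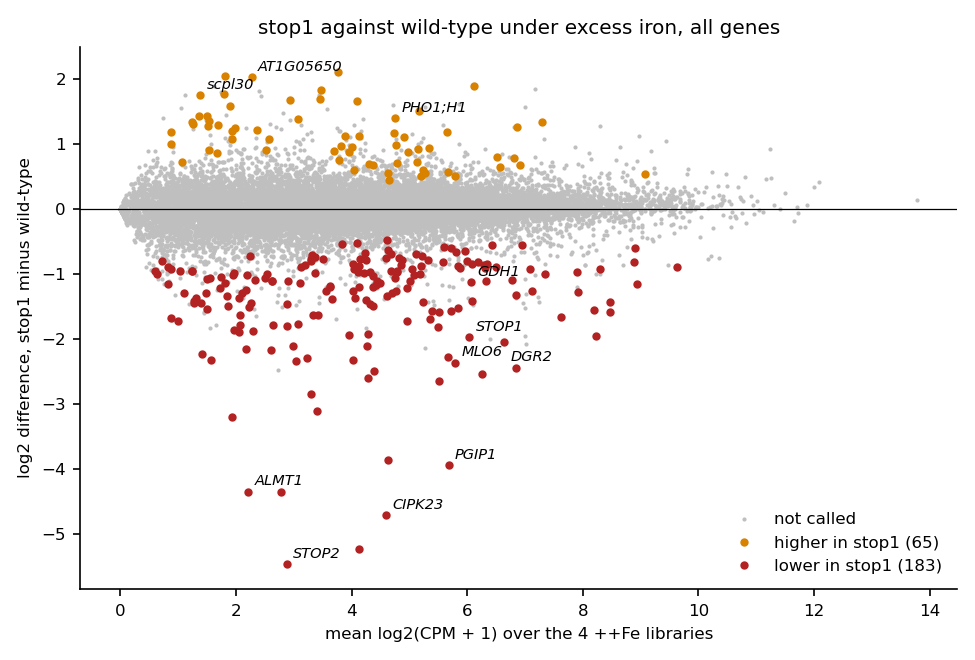
Difference between the genotypes under ++Fe (stop1 minus wild-type, log2 scale) against the mean log2(CPM + 1) over the 4 libraries, with 1 point per gene and called genes in colour. The 183 called genes below 0 reach -5.47 (STOP2), and the 65 called genes above 0 reach 2.11.

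Genes known to need STOP1 were among those with the largest differences. Of 17 such genes in the table, 10 were lower in *stop1* under excess iron and none was higher (58.8%, beside 1.21% of all genes). Their median difference was -1.13, beside a median of 0.00577 over all genes. STOP1 itself, the mutated gene, is among the 10, and without it 9 of 16 were lower, with a median of -1.03. With wild-type replicate 1 left out NADP-ME1 was also called, as higher in *stop1*. The list comes from earlier work on STOP1 and from this study, and was drawn up with results of these data known, so that its count is not independent evidence of its direction. The malate channel ALMT1 (AT1G08430) had 0 and 0.0560 CPM in *stop1* libraries, which is 0 and 1 read, against 23.4 and 17.0 CPM in wild-type libraries. It was at the limit of detection in both *stop1* libraries, and the ratio of wild-type to *stop1* reads, corrected for depth, was 826 (95% exact interval 148 to 32652, counting error only; limma adjusted p = 7.3e-10). STOP2 (AT5G22890), the closest relative of STOP1, had 0 and 0.224 CPM in *stop1* libraries, against 53.7 and 43.1 CPM in wild-type libraries (difference -5.47 ± 0.19, limma adjusted p = 6.38e-12). CIPK23 (AT1G30270), a protein kinase that activates potassium and nitrate transporters of the root, had 3.66 and 3.75 CPM in *stop1* libraries, against 150 and 100.5 CPM in wild-type libraries (difference -4.71 ± 0.16, limma adjusted p = 6.38e-12).

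PGIP1 (AT5G06860), an inhibitor of the polygalacturonases with which fungi degrade pectin, had 9.67 and 15.0 CPM in *stop1* and 253 and 158 CPM in wild-type. Its difference was -3.95 ± 0.35 (limma adjusted p = 3.58e-06), and both *stop1* libraries lay far below both wild-type libraries. DGR2 (AT5G25460), a cell wall protein of the DUF642 family, had 49.3 and 47.1 CPM in *stop1* and 209 and 197 CPM in wild-type (difference -2.05 ± 0.11, limma adjusted p = 1.94e-09). Its relative DGR1 was also lower, with 71.2 and 76.9 CPM in *stop1* and 154 and 166 CPM in wild-type (difference -1.10 ± 0.19, limma adjusted p = 0.00434), but it missed the threshold without *stop1* replicate 1 or wild-type replicate 2 (highest adjusted p = 0.0784). DGR1 was outside the list and was named after its value was seen. Not every gene of the list passed the test, although 15 of the 17 had an unadjusted p under 0.05. HAK5, a high-affinity potassium transporter, had 2.48 and 3.14 CPM in *stop1* and 5.10 and 5.59 CPM in wild-type (limma adjusted p = 0.3), and ALS3, part of a transporter for aluminum tolerance, had 6.19 and 5.04 CPM in *stop1* and 9.04 and 9.38 CPM in wild-type (limma adjusted p = 0.148).

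**Figure D2:**
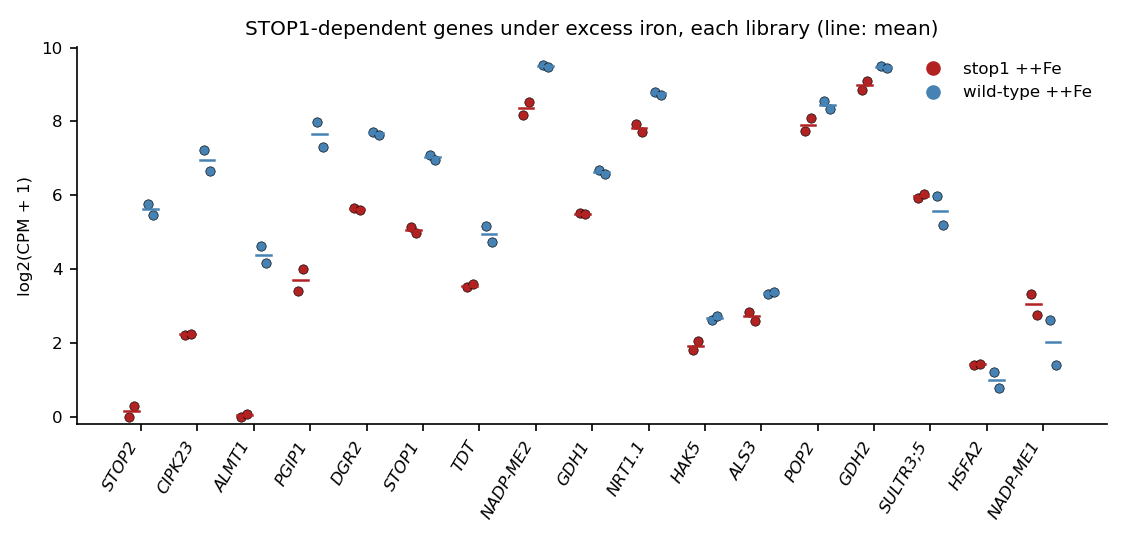
Level of the 17 STOP1-dependent genes in each ++Fe library, on log2(CPM + 1), with stop1 left of wild-type in each pair and a line at the mean of the 2 libraries. In 10 genes, from STOP2 to NRT1.1 (order by difference), both stop1 libraries lie below both wild-type libraries and the test was passed, whereas SULTR3;5, HSFA2 and NADP-ME1 have a higher mean in stop1.

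The 250 bases before the annotated start of the 4 STOP1-dependent genes with the largest differences are shown in the direction of the gene, from the RefSeq sequence of TAIR10.1. Capitals mark the core bound by ART1, the rice relative of STOP1, searched on both strands as GGNAC or GGNAG, as well as GGNCC or GGNCG, and also as GGNGC or GGNGG, with overlapping matches allowed.
ALMT1: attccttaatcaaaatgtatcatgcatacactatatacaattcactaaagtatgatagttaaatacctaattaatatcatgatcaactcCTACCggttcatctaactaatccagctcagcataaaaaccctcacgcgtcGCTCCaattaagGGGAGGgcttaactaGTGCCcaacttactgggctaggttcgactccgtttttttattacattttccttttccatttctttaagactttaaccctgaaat
STOP2: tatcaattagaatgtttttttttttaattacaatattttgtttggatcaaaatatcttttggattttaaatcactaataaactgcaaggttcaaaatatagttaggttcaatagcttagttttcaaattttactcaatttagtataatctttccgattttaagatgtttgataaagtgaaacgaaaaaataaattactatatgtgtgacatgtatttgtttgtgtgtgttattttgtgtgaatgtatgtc
CIPK23: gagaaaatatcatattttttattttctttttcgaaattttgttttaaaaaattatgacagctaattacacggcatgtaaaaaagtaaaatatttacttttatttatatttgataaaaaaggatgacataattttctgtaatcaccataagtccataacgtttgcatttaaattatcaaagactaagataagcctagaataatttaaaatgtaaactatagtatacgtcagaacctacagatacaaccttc
PGIP1: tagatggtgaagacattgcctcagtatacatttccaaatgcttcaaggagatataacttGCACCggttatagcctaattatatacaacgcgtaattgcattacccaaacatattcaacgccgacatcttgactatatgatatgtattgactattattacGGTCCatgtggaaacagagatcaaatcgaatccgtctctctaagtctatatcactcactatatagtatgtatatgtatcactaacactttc
ALMT1 (chr1:2658352-2658601, forward strand) held 5 matches, PGIP1 (chr5:2132100-2132349, forward strand) held 2, and STOP2 (chr5:7654836-7655085, reverse strand) and CIPK23 (chr1:10654550-10654799, forward strand) held 0 in this window. Of 20410 windows of the same length, 87.1% held at least 1 match, with a median of 2, and 20.9% held 5 or more. A match is a description of the letters and not a binding site.

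Some genes around malate and the GABA shunt were lower in *stop1*. Of 19 genes in this list, 6 were lower and none was higher, with a median of -0.49, 11 differences below 0 and 8 above 0. The share called was 31.6%, beside 1.21% of all genes. ALMT1, TDT, NADP-ME2 and GDH1 are 4 of the 6 and were already counted among the STOP1-dependent genes. Without wild-type replicate 1 the list had 5 lower genes and 1 higher, NADP-ME1. Malic enzyme NADP-ME2, which turns malate into pyruvate in the cytosol, had 289 and 368 CPM in *stop1* and 743 and 715 CPM in wild-type (difference -1.16 ± 0.16, limma adjusted p = 0.000558). TDT, the carrier that moves malate into the vacuole, had 10.4 and 11.0 CPM in *stop1* and 34.7 and 25.5 CPM in wild-type (difference -1.39 ± 0.21, limma adjusted p = 0.00129). PPC3, a phosphoenolpyruvate carboxylase that feeds malate synthesis in roots, had 117 and 111 CPM in *stop1* and 258 and 202 CPM in wild-type (difference -0.99 ± 0.19, limma adjusted p = 0.0123), and it did not pass without wild-type replicate 1 or without either *stop1* library (highest adjusted p = 0.114).

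The same list holds enzymes of glutamate. Glutamate dehydrogenase GDH1 had 44.6 and 44.1 CPM in *stop1* and 102 and 94.4 CPM in wild-type (difference -1.13 ± 0.11, limma adjusted p = 1.15e-05). Glutamate decarboxylase GAD1 (AT5G17330), which makes GABA in roots, had 361 and 355 CPM in *stop1* and 646 and 616 CPM in wild-type (difference -0.82 ± 0.10, limma adjusted p = 0.000143). POP2, which breaks GABA down, had 213 and 270 CPM in *stop1* and 376 and 324 CPM in wild-type and did not pass (limma adjusted p = 0.0712). Groups did not overlap in any of these 3 genes, which held for all called genes and for 18.2% of all genes in the lower direction. By contrast PPC1, NAD-ME1, NAD-ME2 and the mitochondrial malate dehydrogenase mMDH1 differed by -0.05 to 0.18 and did not pass.

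Other channels and transporters for anions stood among the lower genes, named after their values were seen. NRT1.1 among them belongs to the STOP1-dependent genes and was already counted there. AT4G00910, annotated as a member of the ALMT family, had 3.79 and 3.31 CPM in *stop1* and 17.4 and 12.1 CPM in wild-type (difference -1.77 ± 0.23, limma adjusted p = 0.000353). SLAH1, which with SLAH3 governs chloride transfer to the shoot, had 2.35 and 3.36 CPM in *stop1* and 12.3 and 19.7 CPM in wild-type (difference -2.12 ± 0.28, limma adjusted p = 0.000386). SLAH3, an anion channel for nitrate and chloride, had 42.1 and 41.0 CPM in *stop1* and 90.7 and 65.5 CPM in wild-type (difference -0.88 ± 0.13, limma adjusted p = 0.00154). NRT1.1, the nitrate transporter and sensor, had 245 and 210 CPM in *stop1* and 447 and 420 CPM in wild-type (difference -0.93 ± 0.19, limma adjusted p = 0.0158), and of the 4 libraries only wild-type replicate 1 could be left out without losing the call (highest adjusted p = 0.19). Genes annotated as transporters, channels or permeases made up 7.65% of the lower genes and 7.69% of the higher genes, beside 2.32% of the table, a grouping by product name that was made after the values were seen.

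Receptor kinases, for which no list of their own was drawn up, recurred among the lower genes. Products named as leucine-rich repeat kinases made up 15 of the 183 lower genes (8.20%) and 0 of the 65 higher genes, beside 160 genes of the table (0.782%), again grouped after the values were seen. Over all 160 the median difference was -0.01. Among the 15, AT1G51790, AT1G51820, AT1G51830, AT1G51850, AT1G51860 and AT1G51890 are neighbours in the run described below, and so are not scattered cases. Such kinases sit in the plasma membrane and sense ligands or the cell wall, and many belong to the malectin-like class. A run of neighbouring genes on chromosome 1 (TAIR10.1, chr1:19206615-19278798), chosen after the values were seen, held 10 genes of the table. Of these 9 were kinases by name, of which 7 were lower in *stop1*, beside 0.895% of all genes. All 10 differences were below 0. Called genes form both ends of the run, so that its counts follow in part from how it was drawn.

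In this run AT1G51830 had 1.66 and 2.02 CPM in *stop1* and 122 and 91.9 CPM in wild-type (difference -5.24 ± 0.21, limma adjusted p = 6.48e-11). AT1G51840 had 0.218 and 0.280 CPM in *stop1* and 11.8 and 9.42 CPM in wild-type (difference -3.21 ± 0.25, limma adjusted p = 6.02e-07). AT1G51820 had 1.18 and 1.12 CPM in *stop1* and 9.68 and 7.58 CPM in wild-type. Of the 7 calls, AT1G51790 was lost without either *stop1* library or wild-type replicate 2, and AT1G51890 without *stop1* replicate 1. IOS1, a kinase of immunity in the same run, had 40.5 and 48.2 CPM in *stop1* and 59.0 and 55.0 CPM in wild-type and did not pass (limma adjusted p = 0.475). The differences within the run thus lay between -5.24 and -0.36. Stretches of 50 bases shared with elsewhere in the genome made up 1.99% of AT1G51830, 4.85% of AT1G51820 and 0% of AT1G51840. Outside the run, AT1G07560, another kinase of this kind, had 2.87 and 2.47 CPM in *stop1* and 18.8 and 16.5 CPM in wild-type (difference -2.35 ± 0.17, limma adjusted p = 3.85e-07), and it overlaps AT1G07570 on the opposite strand.

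**Figure D3:**
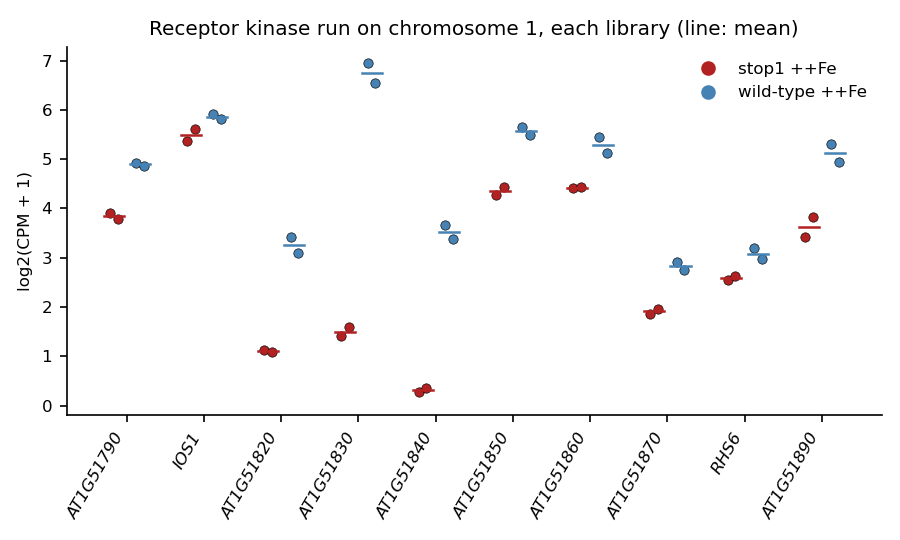
Level of the 10 neighbouring genes of the kinase run on chromosome 1 in each ++Fe library, on log2(CPM + 1), in gene order, with stop1 left of wild-type in each pair and a line at the mean. Both stop1 libraries lie below both wild-type libraries in each of the 10 genes, and the gap is widest at AT1G51830.

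The other genes with the smallest p in the lower direction were of several kinds. AT5G27920, an F-box protein, had 7.49 and 8.12 CPM in *stop1* and 48.0 and 49.7 CPM in wild-type (difference -2.50 ± 0.11, limma adjusted p = 2.27e-10). AT1G33360, annotated as an ATP-dependent Clp protease, had 0.479 and 0.560 CPM in *stop1* and 38.6 and 23.7 CPM in wild-type (difference -4.36 ± 0.23, limma adjusted p = 1.94e-09). Within 1 Mb of STOP1 it and CDPK2 were the genes called, 2 of 213 (0.939%), a share near the 1.21% of all genes. AT5G02480, a protein related to small heat shock chaperones, had 22.2 and 22.2 CPM in *stop1* and 121 and 103 CPM in wild-type (difference -2.28 ± 0.13, limma adjusted p = 8.64e-09). MLO6, of the MLO family of membrane proteins used by powdery mildew, had 20.5 and 26.9 CPM in *stop1* and 152 and 103 CPM in wild-type (difference -2.36 ± 0.20, limma adjusted p = 2.39e-06). The groups did not overlap in these 4 genes, as in all called genes. As with STOP1, the genes MLO6, DGR2, PGIP1, GDH1, F6'H1, NRAMP1, WRKY29, FRK1, GSTF4 and EP3 overlap a gene on the opposite strand, so that their counts carry the same limit. So do HIR2, FLC and AT4G00910, which are named in other paragraphs.

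The higher genes with the smallest p were of several kinds. scpl30, a serine carboxypeptidase-like protein, had 3.05 and 4.65 CPM in *stop1* and 0.463 and 0.379 CPM in wild-type (difference 1.75 ± 0.18, limma adjusted p = 2.22e-05). AT1G05650, of the pectin lyase-like family, had 10.8 and 7.0 CPM in *stop1* and 1.16 and 1.66 CPM in wild-type (difference 2.02 ± 0.27, limma adjusted p = 0.000376). AT5G01740, of the NTF2 family, had 23.4 and 16.8 CPM in *stop1* and 4.63 and 5.12 CPM in wild-type (difference 1.83 ± 0.20, limma adjusted p = 6.23e-05). These 3 genes had low levels in wild-type roots, and no overlap between groups, as in all called genes. PUP4, a purine permease, was higher at a higher level, with 34.8 and 40.2 CPM in *stop1* and 17.8 and 19.2 CPM in wild-type (difference 0.98 ± 0.12, limma adjusted p = 0.000169). AT5G46730, a glycine-rich protein, had 75.9 and 73.1 CPM in *stop1* and 35.0 and 29.8 CPM in wild-type (difference 1.18 ± 0.18, limma adjusted p = 0.00182).

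Regulators stood among the higher genes with the smallest p as well. NAC060, a NAC transcription factor, had 7.01 and 6.67 CPM in *stop1* and 2.69 and 2.08 CPM in wild-type (difference 1.22 ± 0.18, limma adjusted p = 0.0012). The basic leucine zipper factor bZIP3 had 22.4 and 19.2 CPM in *stop1* and 9.54 and 8.43 CPM in wild-type (difference 1.12 ± 0.19, limma adjusted p = 0.00327), and it missed the threshold without *stop1* replicate 1 or wild-type replicate 2 (highest adjusted p = 0.0746). AT2G21210, a SAUR-like protein, had 5.53 and 5.21 CPM in *stop1* and 1.11 and 0.663 CPM in wild-type. It overlaps AT2G21200 on the same strand, so its counts are uncertain. AT3G27250, an uncharacterized protein, had 3.14 and 2.47 CPM in *stop1* and 0.880 and 0.237 CPM in wild-type, and neither edgeR's quasi-likelihood test nor DESeq2 called it. AT3G56210 and the RNA AT4G04223 were higher by 0.94 ± 0.14 and 2.04 ± 0.28, but 41.6% and 71.5% of their 50-base stretches occur elsewhere in the genome, so that their reads are uncertain.

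Of the 6 genes of the FLC family of flowering regulators, 3 were higher in *stop1*. MAF4 had 4.62 and 3.59 CPM in *stop1* and 1.25 and 0.900 CPM in wild-type (difference 1.30 ± 0.20, limma adjusted p = 0.0016). FLC, named after its value was seen, had 2.74 and 3.81 CPM in *stop1* and 0.371 and 0.805 CPM in wild-type (difference 1.43 ± 0.25, limma adjusted p = 0.00438). MAF5, the neighbour of MAF4 and also named after its value was seen, had 1.83 and 1.57 CPM in *stop1* and 0.695 and 0.568 CPM in wild-type (difference 0.73 ± 0.17, limma adjusted p = 0.0448). These 3 were low in both genotypes and did not overlap between them, as in all called genes. FLC missed the threshold without *stop1* replicate 2 (adjusted p = 0.0832), and MAF5 missed it with any 1 library left out (highest adjusted p = 0.403). MAF1, MAF2 (AGL31) and MAF3 differed by -0.14, 0.02 and -0.09 and did not pass.

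Few genes of iron uptake passed the test in the iron-rich medium. Of 34 such genes, 2 were lower and 1 was higher in *stop1* (8.82%, beside 1.21% of all genes), with a median of -0.10 and 25 differences below 0. Their summed level was 988 to 1062 CPM in *stop1* and 1377 to 1414 CPM in wild-type, without overlap. A large part of this gap lay in F6'H1 alone, with a mean of 159 CPM in *stop1* and 378 CPM in wild-type. F6'H1, the first enzyme of the coumarins that roots secrete to mobilize iron, had 122 and 196 CPM in *stop1* and 340 and 417 CPM in wild-type (difference -1.28 ± 0.22, limma adjusted p = 0.0037). NRAMP1, a transporter of manganese and iron, had 52.6 and 61.4 CPM in *stop1* and 87.3 and 133 CPM in wild-type (difference -0.91 ± 0.19, limma adjusted p = 0.0188). NAS2, an enzyme that makes the metal chelator nicotianamine, had 36.0 and 42.3 CPM in *stop1* and 16.6 and 17.1 CPM in wild-type (difference 1.16 ± 0.27, limma adjusted p = 0.0474). These 3 calls were fragile: without wild-type replicate 2 none of the list passed, nor without *stop1* replicate 1, NRAMP1 also lost its call without *stop1* replicate 2, and NAS2 lost its call without any 1 library (highest adjusted p = 0.303).

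The core of iron uptake was near silent in both genotypes. IRT1, the main iron transporter of the root surface, had 0.523 and 0.224 CPM in *stop1* and 0.649 and 0.332 CPM in wild-type, and FRO2, the ferric reductase that works with it, had 1.70 and 1.74 CPM in *stop1* and 2.46 and 2.75 CPM in wild-type. The genotypes overlapped for IRT1 but not for FRO2, and neither passed (limma adjusted p = 0.987 for IRT1 and 0.883 for FRO2). Of 24 genes of iron storage and redox defence none passed the test, 3 had an unadjusted p under 0.05, and the median was -0.04. Ferritin FER1, the iron store of the plastid, had 134 and 166 CPM in *stop1* and 162 and 203 CPM in wild-type (difference -0.28 ± 0.15, limma adjusted p = 0.588). Among metal transporters outside the list, named after their values were seen, ZIP2 had 36.8 and 44.8 CPM in *stop1* and 99.1 and 123 CPM in wild-type (difference -1.42 ± 0.20, limma adjusted p = 0.000615), and the manganese transporter MTP11 had 19.9 and 18.3 CPM in *stop1* and 31.6 and 31.6 CPM in wild-type (difference -0.70 ± 0.12, limma adjusted p = 0.00337). MTP11 missed the threshold without *stop1* replicate 2 (adjusted p = 0.0598).

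Of 26 genes of phosphate starvation, 1 was lower and 1 was higher in *stop1*, with a median of -0.03. Together these calls were 7.69% of the list, beside 1.21% of all genes. PHO1;H1, which exports Pi into the xylem, had 49.6 and 36.8 CPM in *stop1* and 21.0 and 11.5 CPM in wild-type (difference 1.40 ± 0.23, limma adjusted p = 0.00333). The Pi uptake transporter PHT1;1 had 189 and 151 CPM in *stop1* and 296 and 375 CPM in wild-type (difference -0.98 ± 0.17, limma adjusted p = 0.00409), and 42.5% of its 50-base stretches occur elsewhere, so that it shares reads with its relatives. Without wild-type replicate 2 neither passed, PHO1;H1 also missed the threshold without *stop1* replicate 1 (highest adjusted p = 0.0928) and PHT1;1 without *stop1* replicate 2 (highest adjusted p = 0.0929). The root arrest genes LPR1, LPR2 and PDR2 differed by -0.23 to 0.07 and did not pass. In the potassium list 1 of 11 genes passed (9.09%, beside 1.21% of all genes), CIPK23 itself. Its partners CBL1 and CBL9, calcium sensors, and its target AKT1, a potassium channel, differed by -0.35 to 0.07 and did not pass.

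Defence and cell wall genes gave few calls. Called were 22.2% of the camalexin and defence list and 1.67% of the WRKY factors, beside 1.21% of all genes. In the list of camalexin and defence 2 of 9 genes were lower, with a median of -0.36, whereas without wild-type replicate 1 none was lower and PAD3, the last enzyme of camalexin synthesis, was called higher. CYP81F2, which modifies indole glucosinolates, had 26.7 and 40.2 CPM in *stop1* and 126 and 73.8 CPM in wild-type (difference -1.53 ± 0.28, limma adjusted p = 0.00711), whereas without *stop1* replicate 1 or wild-type replicate 1 it missed the threshold (highest adjusted p = 0.186). FRK1, a kinase induced by bacterial flagellin, had 0.566 and 0.840 CPM in *stop1* and 2.27 and 2.32 CPM in wild-type and lost its call without any 1 library. Of 60 WRKY factors 1 was lower, WRKY29 of the flagellin response, with 18.8 and 18.5 CPM in *stop1* and 37.5 and 37.8 CPM in wild-type (difference -0.98 ± 0.18, limma adjusted p = 0.00711). It passed with wild-type replicate 1 left out, but not with any other of the 4 libraries left out (highest adjusted p = 0.0784). HIR2, of the hypersensitive-induced reaction family and named after its value was seen, had 40.8 and 57.0 CPM in *stop1* and 227 and 319 CPM in wild-type (difference -2.46 ± 0.25, limma adjusted p = 2.22e-05).

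Of 50 xyloglucan enzymes and expansins, EXPA17 was higher, with 29.8 and 28.7 CPM in *stop1* and 5.70 and 12.7 CPM in wild-type, and XTH33 was lower, with 2.83 and 1.68 CPM in *stop1* and 5.33 and 5.64 CPM in wild-type. EXPA17 loosens walls around new lateral roots. Of 57 class III peroxidases, 2 were lower, AT5G64110 with a difference of -1.87 ± 0.28 and AT5G47000 with -0.95 ± 0.22, the second being near the limit of detection. Of 47 glutathione S-transferases, GSTF14 was lower, with 4.66 and 8.46 CPM in *stop1* and 20.7 and 60.7 CPM in wild-type (difference -2.32 ± 0.46, limma adjusted p = 0.0138), and GSTF4 was higher, with a difference of 0.61 ± 0.14. Of 29 aquaporins, NIP3;1 was lower, with a difference of -0.77 ± 0.17. Shares called were 4% for xyloglucan enzymes and expansins, 3.51% for peroxidases, 4.26% for transferases and 3.45% for aquaporins, beside 1.21% of all genes. Of the 6 genes called in the first 3 of these lists and NIP3;1, AT5G64110 was the one that did not depend on any 1 library.

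None of the 12 hypoxia genes passed (4 had an unadjusted p under 0.05), although all 12 differences were below 0, with a median of -1.19. The summed level was 388 and 603 CPM in *stop1* libraries and 669 and 1849 CPM in wild-type libraries, and wild-type replicate 2 was the highest of the 4 libraries in 12 of 12 genes. Alcohol dehydrogenase ADH1, the classic gene of low oxygen, had 39.0 and 106 CPM in *stop1* and 112 and 570 CPM in wild-type (difference -1.96 ± 0.96, limma adjusted p = 0.531). Without wild-type replicate 2 the median was -0.75 and 11 of 12 differences were below 0, and without wild-type replicate 1 the median was -1.78 and 1 gene passed. The part of the difference in hypoxia genes in the other results was not tested. All 9 plasma membrane proton pumps were also below 0 (median -0.15) without a call, 2 of them with an unadjusted p under 0.05. AHA2, the main pump of the root, came nearest, with 946 and 909 CPM in *stop1* and 1638 and 1438 CPM in wild-type (difference -0.73 ± 0.17, limma adjusted p = 0.0507).

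No gene passed in the lists of Casparian strip and suberin (18 genes, median 0.16), ER stress (11, 0.14), aluminum tolerance (7, 0.06), berberine bridge-like oxidases (18, -0.10), cell cycle (19, 0.10), ethylene and abscisic acid (10, 0.17), heat shock (46, 0.25), jasmonate with its TIFY, lipoxygenase and OPR relatives (37, 0.01), nitrate (10, -0.18), root hair (11, -0.17) and sulfur (11, 0.09). At an unadjusted p under 0.05 stood 7 of the berberine bridge-like oxidases, 5 heat shock genes, 3 of ethylene and abscisic acid, 2 each of the jasmonate, nitrate and root hair lists, 1 each of the suberin and sulfur lists and 0 of the others. In some of these lists too the differences lay mostly on 1 side of 0. All 11 root hair genes were below 0. Above 0 were 17 of 18 Casparian strip and suberin genes, 17 of 19 cell cycle genes and 10 of 11 ER stress genes. The berberine bridge-like oxidase, jasmonate, nitrate and sulfur lists were mixed. With 2 libraries per group these lists may hold differences too small to be called.

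The sign of the genotype difference under excess iron was mostly the same in the other media. Median differences were smaller there, except for the lower genes under +Al. These genes were picked by passing under ++Fe, which by itself favours larger values in that medium. The medians therefore do not show that the difference was smaller elsewhere. When the difference under ++Fe was tested against that in -Pi_pH5, 179 of the 183 lower and 64 of the 65 higher genes were not called. For the 183 lower genes the median difference was -1.16 under ++Fe, -1.17 in +Al, -0.46 in -Pi_pH5, -0.42 in +Pi_pH5 and in -Pi_pH6, and -0.31 in +Pi_pH6. For the 65 higher genes it was 1.08 under ++Fe, 0.79 in +Al and 0.25 to 0.47 in the others. The genotype comparisons of different media share no libraries. Of the 183 genes lower in *stop1* under ++Fe, 152 (83.1%) were also below 0 in -Pi_pH5, beside 49.2% of all genes, and 49 (26.8%) were called lower there, which is 69.0% of the genes called lower in -Pi_pH5 (0.347% of those tested). In +Al, 152 (83.1%) were below 0, beside 52.1% of all genes, and 125 (68.3%) were called lower, 6.85% of the genes called lower in +Al (8.92% of those tested), whereas 15 were called higher. Of the 65 higher genes, 54 (83.1%) were above 0 in -Pi_pH5 and 9 were called higher there, 18.4% of the genes called higher in -Pi_pH5 (0.240% of those tested). In +Al 52 of the 65 were above 0, and 38 were called higher, 1.66% of the genes called higher in +Al (11.2% of those tested), against 4 called lower.

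In the media with Pi or at pH 6 the overlap was smaller in number. Of the 183 lower genes, 38 were called lower in -Pi_pH6 (0.342% of those tested), 40 in +Pi_pH5 (0.308%) and 25 in +Pi_pH6 (0.132%), and 147, 153 and 148 were below 0 there. These were 54.3%, 63.5% and 92.6% of the genes called lower in those media. Of the 65 higher genes, 11 were called higher in -Pi_pH6 (0.191% of those tested), 7 in +Pi_pH5 (0.0978%) and 8 in +Pi_pH6 (0.0587%), and 2 were called lower in -Pi_pH6.

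Of the lower genes 21 (11.5%) were called lower in all 5 other media, among them ALMT1, STOP2, CIPK23, PGIP1, DGR2, GDH1, AT1G51830 and AT1G33360. The 4 higher genes called in all media were MAF4, AT4G04223, AT3G56210 and MSRB6, a methionine sulfoxide reductase. In contrast 58 lower genes (31.7%) and 20 higher genes (30.8%) were called in no other medium, which does not show that they differed between media. Calls in +Pi_pH6 and +Pi_pH5 rest on *stop1* libraries whose labels may be exchanged between these media.

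**Figure D4:**
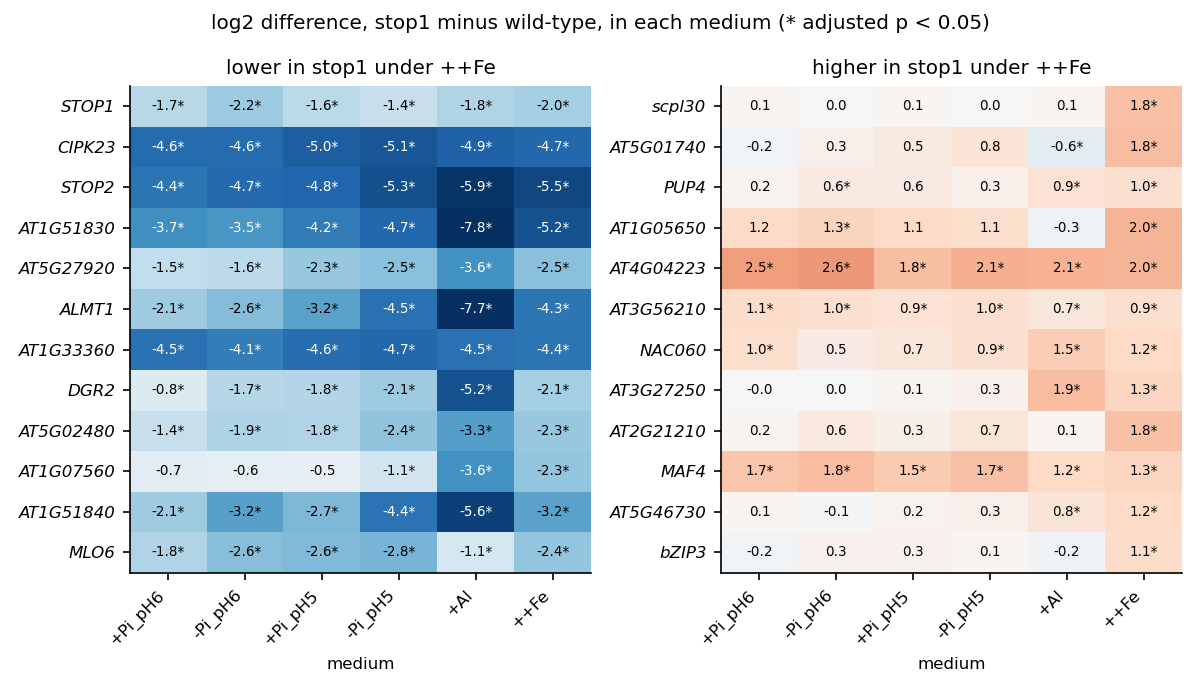
Difference between the genotypes (stop1 minus wild-type, log2 scale) in each of 6 media for the 12 lower and 12 higher genes with the smallest p under ++Fe, with STOP1 among the lower genes, and an asterisk at an adjusted p under 0.05 within that medium. CIPK23 and AT1G33360 stay between -5.1 and -4.1 in every medium, and scpl30 passed the test under ++Fe alone.

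The genotype difference under ++Fe was set against that in -Pi_pH5, which has the same pH and only the iron of the base medium. For 4 genes the difference was below that in -Pi_pH5 (0.0196% of those tested) and for 1 gene above it (0.00489%), with 1251 genes at an unadjusted p under 0.05. EP3, a chitinase, had 17.5 and 15.7 CPM in *stop1* and 42.6 and 40.2 CPM in wild-type under ++Fe, whereas in -Pi_pH5 it had 19.0 and 18.0 CPM in *stop1* and 11.5 and 10.9 CPM in wild-type. The genotypes thus stood in the opposite order, but the EP3 difference in -Pi_pH5 alone (0.68) did not pass (limma adjusted p = 0.102). The difference of differences was -1.95 ± 0.24 (limma adjusted p = 0.0071). WRKY29 too had the opposite order in -Pi_pH5, with 18.1 and 15.0 CPM in *stop1* and 10.01 and 7.18 CPM in wild-type (difference of differences -1.86 ± 0.25, limma adjusted p = 0.0113). In both genes the level changed more between media in wild-type than in *stop1*.

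AT5G48430, annotated as an aspartyl protease, had 8.57 and 4.76 CPM in *stop1* and 2.73 and 1.60 CPM in wild-type in -Pi_pH5. Under ++Fe it had 2.44 and 2.24 CPM in *stop1* and 10.7 and 10.4 CPM in wild-type (difference of differences -3.05 ± 0.44, limma adjusted p = 0.0156). Its difference in -Pi_pH5 alone (1.25) did not pass (limma adjusted p = 0.0959). PHT1;1 had 572 and 473 CPM in *stop1* and 399.6 and 319 CPM in wild-type in -Pi_pH5 (difference of differences -1.52 ± 0.24, limma adjusted p = 0.0253). scpl30 was at 0 to 0.0462 CPM in all 4 libraries of -Pi_pH5, at most 1 read (difference of differences 1.72 ± 0.25, limma adjusted p = 0.0156), and neither edgeR nor DESeq2 called it. These calls rest on single libraries: without *stop1* ++Fe replicate 2, *stop1* -Pi_pH5 replicate 1 or wild-type -Pi_pH5 replicate 2 no gene passed, without wild-type ++Fe replicate 2 only EP3 passed, and without wild-type ++Fe replicate 1 the counts were 76 below and 256 above.

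Against +Al many genes differed. The genotype difference under ++Fe was above that under +Al in 666 genes (3.26% of those tested) and below it in 897 (4.39%). Of the 183 genes lower in *stop1* under ++Fe, 40 were above, so that the gap was wider under +Al, and 38 were below, so that it was narrower under +Al or had the opposite sign. DGR2 had 49.3 and 47.1 CPM in *stop1* and 209 and 197 CPM in wild-type under ++Fe, and 28.9 and 34.5 CPM in *stop1* and 1174 and 1292 CPM in wild-type under +Al (difference of differences 3.19 ± 0.15, limma adjusted p = 2.96e-09). For ALMT1 wild-type had 243 and 187 CPM under +Al, while *stop1* stayed at 1 read or fewer (difference of differences 3.36 ± 0.30, limma adjusted p = 4.73e-06), a fitted value that depends on the pseudocount because *stop1* is at the limit of detection.

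SKOR, the channel that loads potassium into the xylem, had 39.8 and 29.2 CPM in *stop1* and 25.3 and 21.6 CPM in wild-type under ++Fe, and 2.66 and 2.48 CPM in *stop1* and 23.6 and 17.0 CPM in wild-type under +Al (difference of differences 3.09 ± 0.22, limma adjusted p = 5.39e-07). AT4G15390, an acyltransferase, had 376 and 347 CPM in *stop1* and 297 and 427 CPM in wild-type under ++Fe, and 38.7 and 30.0 CPM in *stop1* and 582 and 520.1 CPM in wild-type under +Al. ATL15, a RING-type ubiquitin ligase by its name, gave 3.01 ± 0.22. In these 3 genes the groups overlapped or lay within 2-fold under ++Fe and were several-fold apart under +Al.

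In the other direction, CYP81F2 had 124 and 81.0 CPM in *stop1* and 13.8 and 16.7 CPM in wild-type under +Al, the opposite of its order under ++Fe (difference of differences -4.18 ± 0.39, limma adjusted p = 8.13e-06). AT1G26410, of the berberine bridge-like oxidases, had 23.6 and 40.3 CPM in *stop1* and 47.9 and 40.5 CPM in wild-type under ++Fe, and 103 and 94.3 CPM in *stop1* and 6.63 and 7.64 CPM in wild-type under +Al. The peroxidase PA2 gave -3.22 ± 0.25 and the receptor kinase RK3 -3.19 ± 0.25, both with genotypes within 2-fold of each other under ++Fe by their means. The number of such genes depended on the libraries, with 347 above and 392 below without wild-type +Al replicate 1, 959 and 1386 without wild-type +Al replicate 2, and a balance that turned to 773 above and 620 below without wild-type ++Fe replicate 1.

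**Figure D5:**
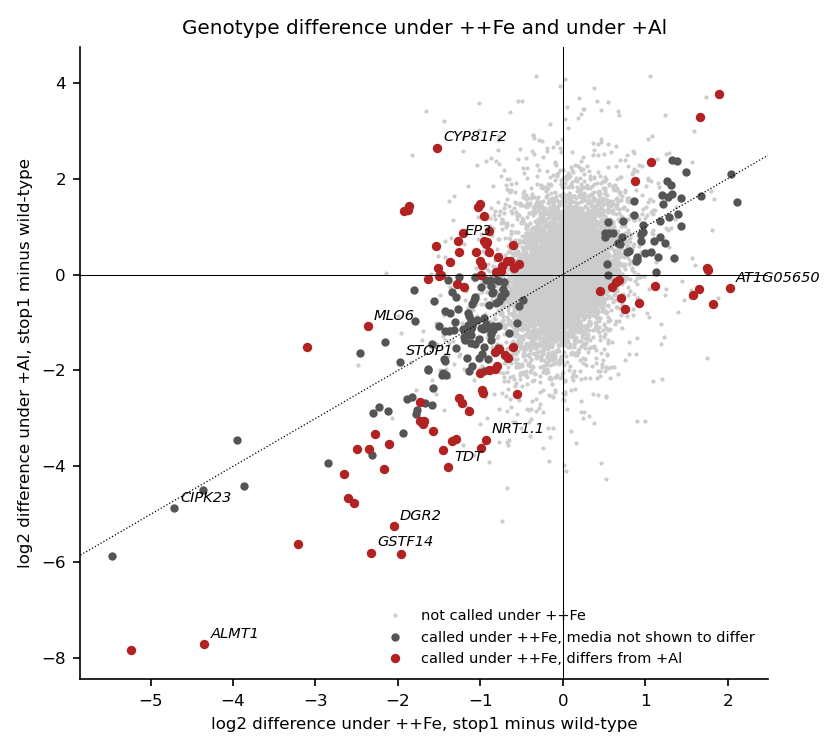
Difference between the genotypes (stop1 minus wild-type, log2 scale) under ++Fe on the x axis and under +Al on the y axis, with 1 point per gene, a dotted line of equal difference, and called genes dark, or red where the media differed by the test. DGR2, ALMT1 and TDT lie below the line with a wider gap under +Al, and CYP81F2 and EP3 lie in the upper left, lower in stop1 under ++Fe and higher under +Al.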

How the data were processed

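The deposited table held, per the authors, CPM of reads on genes computed with TMM-normalized library sizes in edgeR after alignment with HISAT2 to TAIR10 and counting with HTSeq, which is a normalized signal and not a raw count. How low genes were filtered, and whether HTSeq counted by strand, is not given in the sources used here. The deposited signal values came out as whole reads in 100% of entries (largest distance from a whole number 0.000106), so count tests served as alternatives. Comparisons used the moderated test of limma 3.58.1 (R 4.3.3), fitted to log2(CPM + 1) over all 24 libraries in 12 groups, Benjamini-Hochberg adjustment over 20450 genes and a threshold of 0.05. Alternatives were edgeR 4.0.16, DESeq2 1.42.0, other scalings, pseudocounts and filters, only the groups compared, a replicate block and each library left out. Each group had 2 libraries, and the p-values rest on the spread within the 12 groups, pooled over all 24 libraries and moderated across genes. They do not measure the spread of the compared libraries alone.

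Named were STOP1 and the 12 called genes with the smallest p in each direction. Their libraries had to show no overlap between the genotypes, which held for all called genes. Called members of each list were also named, up to 8 per list, as were some members not called. Genes with the smallest p of each difference between media were named as well. Other called genes, among them DGR1 and some genes of the kinase run on chromosome 1, were named after their values were seen. The genes and lists were chosen with earlier results of these data known, and the peroxidase and berberine bridge lists were completed by product name from RefSeq once the table was at hand. Of the gene IDs, 20414 matched RefSeq, and 13 list entries had no match. From the lists filled by symbol, 17 members whose product is of another family were taken out after the values had been seen. None of 5 seed markers was in the table. Scripts were tested on simulated data.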

Additional observations from a re-analysis of the deposited data

Results flagged for a closer look

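The genotype difference under ++Fe differed by limma's test of the difference from that in -Pi_pH5 in 5 genes, and from that in +Al in 1563 genes. Against -Pi_pH5 the difference of differences was 1.72 for scpl30, -1.95 for EP3, -1.86 for WRKY29, -3.05 for AT5G48430 and -1.52 for PHT1;1. Against +Al it was 3.19 for DGR2, 4.0 for AT4G15390, 3.09 for SKOR and 3.01 for ATL15, and -4.11 for AT1G26410, -3.22 for PA2, -3.19 for RK3 and -4.18 for CYP81F2. The media also differ in Pi, so that Pi and metal cannot be told apart.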

How the results depend on the processing

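The numbers of called genes moved with the settings, and the causes were not tested. None of the 45 called genes picked by the rule, nor of 17 called genes named after their values were seen, changed sign under the alternatives run. For *stop1* against wild-type under ++Fe, 65 genes were higher and 183 lower. DESeq2 gave 108 higher, edgeR's likelihood ratio test 112 higher and 278 lower, and the 4 libraries alone 4 higher and 40 lower, where fewer libraries estimate the spread. With 1 library left out the counts ranged from 18 to 457 higher and from 81 to 238 lower.

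Against -Pi_pH5, 1 gene was above and 4 below. DESeq2 gave 6 above and 56 below, the likelihood ratio test 4 above and 59 below, and the groups compared alone 0 above and 0 below. The quasi-likelihood test, a mean CPM of at least 1 and pseudocounts of 0.1 and 0.5 each gave 0 above. With 1 library left out the counts ranged from 0 to 256 above and from 0 to 76 below. Against +Al, 666 were above and 897 below. The groups compared alone gave 230 above and 307 below, and with 1 library left out the counts ranged from 347 to 959 above and from 392 to 1386 below.

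Samples with the same replicate number did not deviate together under ++Fe (r = 0.00641) or +Al (r = -0.0223), while in -Pi_pH5 r was 0.433, so the numbers were not taken to pair the samples. With the replicate block, 98 genes were higher and 218 lower under ++Fe, 10 were below against -Pi_pH5, and 760 were above and 1056 below against +Al. Depth limits genes at a few reads, such as ALMT1 in *stop1*.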
